A study of Homo sapiens with 6 samples.

Results

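The complement factors and regulators measured in DLD1 cells were the 9 genes *C1R*, *C1S*, *C3*, *CFB*, *CFI*, *SERPING1*, *CD46*, *CD55* and *CD59*, of 58884 Ensembl genes in the count table. They were selected on the measured difference between the groups of this RNA-seq experiment and on their place in the complement system, and each symbol matched 1 identifier by its GENCODE name. DLD1 is a colorectal cancer cell line with a *PIK3CA* helical domain mutation, which both groups carry. RNA-seq compared 3 libraries of parental cells with 3 libraries of cells in which the K477A and R478A changes were introduced by CRISPR in each copy of *PIK3R2*, which encodes the PI3K regulatory subunit p85β. These changes remove the basic residues of its nuclear localization sequence, and the cells are called p85β KR-AA cells here. The paper tells of a pair of clones made independently, but neither the clone nor the number of cultures behind a library is in the labels, so that p-values measure only the spread between these libraries. One label field writes R479A and R480A for p85β KR-AA replicates 2 and 3, while the titles and the genotype field give R478A for all 3.

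Complement is a cascade of plasma and membrane proteins that marks cells and microbes for removal. In the classical pathway, the proteases C1r and C1s activate C4 and C2. In the alternative pathway, factor B, cut by factor D, forms a C3 convertase with a fragment of C3. CD46, CD55, CD59, factor I and C1 inhibitor hold the cascade back. Most plasma complement is made in the liver, while epithelial cells, those of the colon included, make some components themselves and carry CD46, CD55 and CD59 on their surface.

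The libraries held 20301396 to 26712816 estimated counts each. CPM denotes counts scaled to the TMM-adjusted size of the library, and the limit that a count of 0 allows, 3 counts, stood for 0.0818 to 0.218 CPM and covers counting error only. The edited gene *PIK3R2* ranged from 169.3 to 524.1 counts in parental libraries and from 124.5 to 503.1 counts after the knock-in, shares its locus with the readthrough gene ENSG00000268173, and says nothing by its level about the knocked-in bases. All 7 epithelial markers, *EPCAM*, *CDH1*, *KRT8*, *KRT18*, *KRT19*, *CLDN4* and *ESRP1*, were over 1 CPM in every library, with a summed level of 57530 to 79619 CPM in parental and 8909 to 10438 CPM in p85β KR-AA libraries. On this scale, in 5 of the 7 every p85β KR-AA library was lower than the parental ones, and in 2, *CDH1* and *ESRP1*, every one was higher. Of 7 colon markers, 6 in parental and 4 in p85β KR-AA cells were over 1 CPM in every library, while *CDX1* had at most 3 counts in any library. Their summed level was 365.1 to 407.8 CPM in parental and 123.5 to 132.8 CPM in p85β KR-AA libraries. In 4 of them, *CDX2*, *VIL1*, *LGALS4* and *GPA33*, every p85β KR-AA library was lower, and in 1, *CDH17*, every one was higher. *CDX2* had means of 346.7 and 88.0 CPM. Of 8 fibroblast markers, 2 in parental and 6 in p85β KR-AA cells were over 1 CPM in every library. Their summed level was 4.08 to 5.58 CPM in parental and 1717 to 1854 CPM in p85β KR-AA cells, nearly all of the latter *VIM*. In 6 of the 8 every p85β KR-AA library was higher than the parental ones, and in 0 every one was lower. Of the 6, *COL3A1*, *DCN* and *LUM* had no count in parental and 65 to 262 counts in p85β KR-AA libraries. *COL1A2* and *THY1* had at most 1 count in any library. Of 8 hepatocyte markers, 5 (*ALB*, *APOA2*, *TTR*, *FGB* and *HP*) had at most 3 counts in any library, and the summed level was 43.9 to 48.5 CPM in parental and 85.1 to 98.7 CPM in p85β KR-AA libraries. Nearly all of this sum was *SERPINA1*, with 42.0 to 46.6 CPM in parental and 83.8 to 97.4 CPM in p85β KR-AA libraries. *APOA1*, with at most 6 counts in a library, was lower in every p85β KR-AA library, and *TF* overlapped between the groups. Of 8 blood markers, 4 (*PTPRC*, *TYROBP*, *CD163* and *FCER1G*) had at most 3 counts, with sums of 56.4 to 68.1 and 37.8 to 46.6 CPM. The part of this difference between the cultures in the complement values was not tested.

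Among the 9 genes, the largest difference was in a membrane regulator. *CD55* ranked between 5709 and 6223 by counts among all genes in parental cells and between 123 and 170 in p85β KR-AA cells, *CD46* was several times higher, and *CD59* was only slightly higher by TMM scaling and lower when fold changes were adjusted for gene length. Because the genes were selected on this difference, their values are a description and carry no test. Of the 9 genes, 7 passed the filter on low counts, and in these 7 the 3 p85β KR-AA libraries lay above the 3 parental ones on the CPM scale. Among all 16059 genes that passed, 47.0% showed that pattern, and 36.5% the reverse. In bulk RNA, a change in the share of cells that express a gene and a change in RNA per cell cannot be told apart.

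*CD55* (ENSG00000196352, plus strand of chromosome 1 of GRCh37, 207494864 to 207560149) encodes decay-accelerating factor, a GPI-anchored protein that takes C3 convertases apart. Its level was 15.7, 18.0 and 21.4 CPM in parental replicates 1, 2 and 3 and 655, 662 and 538 CPM in p85β KR-AA replicates 1, 2 and 3. The groups were far apart, and within each group the highest library was at most 1.36 times the lowest. The group means were 18.4 ± 2.85 and 618 ± 69.9 CPM (SD, n = 3 each), which is 33.6-fold, or 5.07 on the log2 scale. Of all tested genes, 95.6% had a lower log2 fold change. The log2 fold change was between 4.05 and 6.45 under every alternative scaling and offset tried and between 4.97 and 5.17 with any single library left out.

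*CD46* (ENSG00000117335, plus strand of chromosome 1, 207925382 to 207968858) encodes membrane cofactor protein, which helps factor I to cut C3b and C4b. It lies 365 kb from *CD55* in the cluster of complement regulator genes on the long arm of that chromosome. Its level was 18.3, 29.4 and 24.99 CPM in parental and 152, 158 and 93.5 CPM in p85β KR-AA libraries, in the order of their numbers. Replicate 3 was the lowest p85β KR-AA library and still above the highest parental one. The means were 24.2 ± 5.62 and 134.6 ± 35.8 CPM (SD, n = 3 each), which is 5.56-fold, or 2.47 on the log2 scale. Without p85β KR-AA replicate 3 it was 2.68, and with length and GC offsets it was 0.75. A long non-coding RNA gene on the opposite strand, *MIR29B2CHG*, overlaps *CD46* and had mean counts of 17 (parental) and 326 (p85β KR-AA), against 275 to 405 and 2565 to 5563 counts of *CD46* itself. Whether the counting used strand is not given in the sources used here.

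*CD59* (ENSG00000085063, minus strand of chromosome 11, 33724556 to 33758025) encodes protectin, a GPI-anchored protein that blocks the membrane attack complex. It had the highest CPM of the 9 genes in parental cells, with 92.2, 126.5 and 129 CPM, against 168, 161 and 168 CPM in p85β KR-AA cells. The groups did not overlap, but the gap between the highest parental and the lowest p85β KR-AA library was small. The means were 115.9 ± 20.5 and 165.8 ± 3.83 CPM (SD, n = 3 each), or 0.52 as a log2 fold change. The direction held for TMM, library totals and DESeq2 size factors and turned with an offset for gene length (-1.53) and with offsets for length and GC content (-1.77), *CD59* being 7631 bases long in the deposited table. A same-strand gene, ENSG00000284969, overlaps *CD59* and took a mean of 66.9 and 81.2 counts, and summing both left a log2 ratio of means of 0.48.

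**Figure D1:**
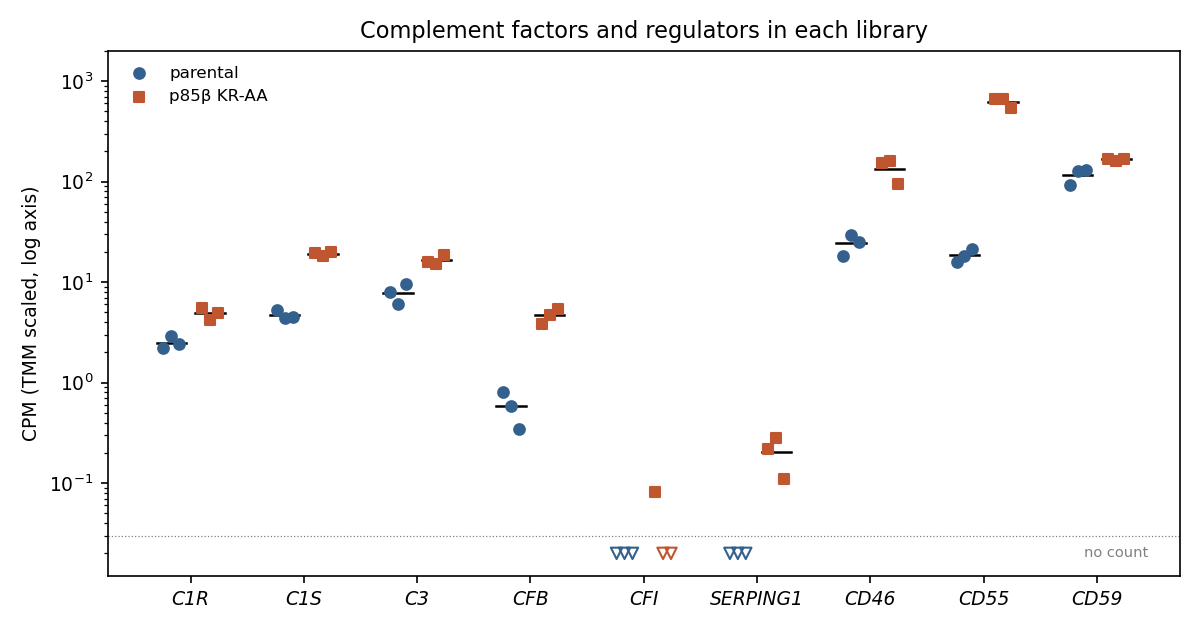
Level of each of the 9 genes in the 6 libraries, in TMM-scaled CPM on a log axis (circles, parental; squares, p85β KR-AA; bars, group means; open triangles, libraries without a count). *CD55* separates the groups most, from 15.7 to 21.4 CPM in parental to 538 to 662 CPM in p85β KR-AA libraries, while *CFI* and *SERPING1* stay at or near 0.

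To compare genes with one another, counts were divided by gene length and scaled to the same sum in every library (TPM). In parental cells the order was *CD59* (15.1 ± 3.03 TPM), *CD55* (9.99 ± 2.26 TPM) and *CD46* (7.30 ± 1.41 TPM, SD, n = 3 each), and the ranges of *CD59* and *CD55* overlapped. In p85β KR-AA cells it was *CD55* (872 ± 118 TPM), *CD46* (107.0 ± 30.6 TPM) and *CD59* (56.4 ± 0.55 TPM, SD, n = 3 each), with no overlap between neighbours. *CD59* was thus first of these regulators in parental and last in p85β KR-AA cells, while *CD55* was above *CD46* in both. *CD55* made up 27.6% to 32.6% of the summed TPM of these regulators in parental cells and 83.8% to 85.2% after the knock-in. *CD59* made up 46.1% to 46.95% before and 4.94% to 6.44% after. The ratio of *CD55* to *CD59* was 0.589 to 0.707 in parental and 13.2 to 16.97 in p85β KR-AA libraries. Such a ratio within a library does not depend on how libraries were scaled, but it does carry any dependence of counts on gene length that differs between the groups.

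**Figure D2:**
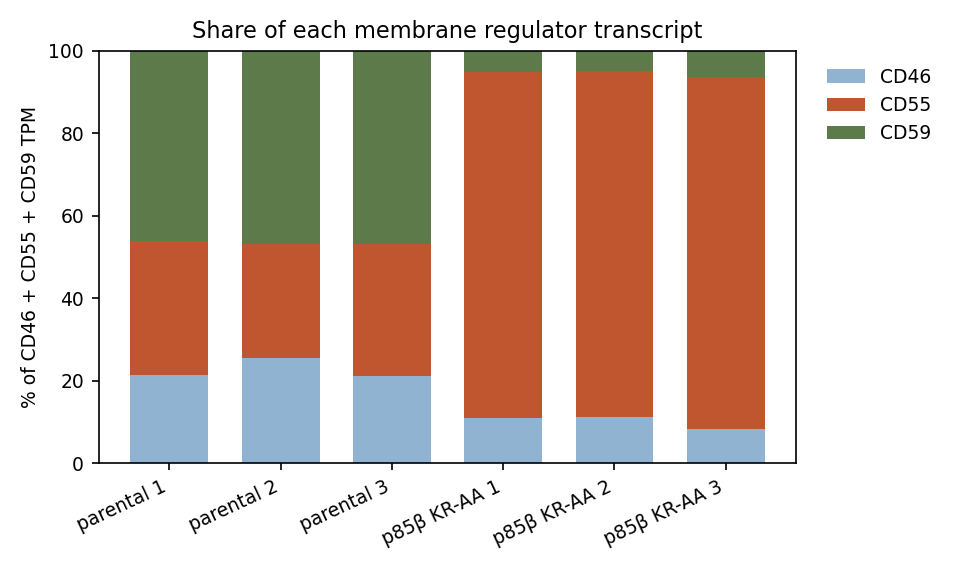
Share of *CD46*, *CD55* and *CD59* in their summed TPM (percent, stacked bars from 0 to 100, 1 bar per library). The share of *CD55* lies between 27.6% and 32.6% in the parental libraries and between 83.8% and 85.2% in the p85β KR-AA libraries.

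The promoters of *CD55* and *CD46*, neighbours in the same cluster, and of *CFB* are shown because these had the largest fold changes of the 9 genes. Each sequence is the 250 bases before the RefSeq start in GRCh38.p14, plus strand, and capitals mark letters that matched 1 of the motifs searched on both strands. These were the GAS core TTCNNNGAA, the ISRE core (GAAA, any 2 bases, GAAA), a kB form (GGG, any 2 bases, T, any 2 bases, CC), the AP-1 form TGANTCA and the C/EBP form TTGCNNAA, where N is any base.
CD55, chr1:207321428-207321677: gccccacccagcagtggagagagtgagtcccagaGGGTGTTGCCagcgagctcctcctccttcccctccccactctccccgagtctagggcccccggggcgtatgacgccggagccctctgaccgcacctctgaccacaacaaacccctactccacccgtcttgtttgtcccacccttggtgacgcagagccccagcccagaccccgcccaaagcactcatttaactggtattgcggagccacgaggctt
CD46, chr1:207751788-207752037: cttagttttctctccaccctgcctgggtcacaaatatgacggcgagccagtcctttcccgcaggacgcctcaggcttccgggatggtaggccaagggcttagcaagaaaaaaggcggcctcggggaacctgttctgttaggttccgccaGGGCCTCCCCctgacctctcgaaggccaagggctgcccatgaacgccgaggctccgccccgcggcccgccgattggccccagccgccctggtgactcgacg
CFB, chr6:31945845-31946094: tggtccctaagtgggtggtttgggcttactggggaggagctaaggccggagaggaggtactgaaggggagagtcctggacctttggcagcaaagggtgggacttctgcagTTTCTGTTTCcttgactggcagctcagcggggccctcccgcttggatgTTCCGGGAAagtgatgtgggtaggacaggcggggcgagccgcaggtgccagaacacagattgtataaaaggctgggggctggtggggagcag

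The *CFB* promoter held a GAS match that begins 92 bases before the start and an ISRE match, on the minus strand, that begins 140 bases before it. Of 35116 promoter entries in the RefSeq table, 6.57% held the GAS letters and 3.02% the ISRE letters. The *CD55* and *CD46* promoters each held only the kB letters, which 19.7% of all entries held. The table had 11 entries for 6 of the 9 genes, *CD55*, *CD46*, *CFI*, *CFB*, *CD59* and *C1R*. The *CFI* entry held none of the 5 motifs, and GAS letters also stood in entries of *CD59* and *C1R*. A *CD59* entry held AP-1 letters at 117 and 23 bases before its start, and 6.57% of all entries held these letters. The C/EBP letters stood in 3 of the 11 entries, of *CD59* and *C1R*, against 9.05% of all entries. The promoters of *CD55* and *CD46* shown above were 64.0% and 64.8% G or C and that of *CFI* 38.0%, with a median of 58% over all entries. A match of letters is no evidence of binding.

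Among the soluble factors, *CFB* differed most, then *C1S*, while *C3* and *C1R* were higher by 1.07 and 0.97 on the log2 scale with TMM. *CFB* (ENSG00000243649, plus strand of chromosome 6, 31913427 to 31919863) encodes factor B, the protease of the alternative pathway convertase. Its estimated counts were 12.1, 8.0 and 5.7 in parental and 140.8, 136.5 and 147.8 in p85β KR-AA replicates 1, 2 and 3. The groups did not overlap, although the parental values rested on few counts. The means were 0.579 ± 0.228 and 4.66 ± 0.777 CPM (SD, n = 3 each), which is 7.98-fold, or 3.0 on the log2 scale. The counts are uncertain, because ENSG00000244255, which spans *C2* and *CFB* on the same strand, shares reads with *CFB* and took mean counts of 5.41 (parental) and 186.9 (p85β KR-AA). With both summed, the means were 0.928 ± 0.469 and 10.7 ± 0.887 CPM (SD, n = 3 each), or 3.53 as a log2 ratio.

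*C1S* (ENSG00000182326, plus strand of chromosome 12, 7096351 to 7178336) and *C1R* (ENSG00000159403, minus strand, 7187513 to 7245203) encode the proteases that sit together in the C1 complex, and lie 9.18 kb apart. *C1S* had 5.23, 4.40 and 4.46 CPM in parental and 19.6, 18.0 and 19.9 CPM in p85β KR-AA libraries, a log2 fold change of 2.03. *C1R* had 2.19, 2.91 and 2.41 CPM in parental and 5.55, 4.23 and 4.97 CPM in p85β KR-AA libraries, a log2 fold change of 0.97. Both were higher in every p85β KR-AA library, and *C1S* by more than *C1R*. The TPM ratio of *C1S* to *C1R* was 1.15 to 1.82 in parental and 2.69 to 3.25 in p85β KR-AA libraries, without overlap. With length and GC offsets the log2 fold changes were 1.10 for *C1S* and 1.76 for *C1R*, so that the order of the pair turned. *C1R* overlaps *C1RL* on the same strand, with a mean of 107 and 319 counts, and *C1S* overlaps *LPCAT3* on the opposite strand, with 527 and 660 counts.

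*C3* (ENSG00000125730, minus strand of chromosome 19, 6677715 to 6730573) encodes the component on which all pathways converge. It had 7.90, 6.04 and 9.56 CPM in parental and 15.7, 15.2 and 18.7 CPM in p85β KR-AA libraries. The groups did not overlap, and the means were 7.84 ± 1.76 and 16.5 ± 1.89 CPM (SD, n = 3 each). The log2 fold change was 1.07 by TMM scaling, turned to -0.35 with an offset for gene length, and was 0.81 with length and GC offsets. The TPM ratio of *C3* to *CFB* was 5.34 to 14.9 in parental libraries and 1.74 to 2.22 after the knock-in. In p85β KR-AA cells the order of the soluble factors was *C1S* (16.1 ± 0.41 TPM), *C3* (8.14 ± 0.74 TPM), *C1R* (5.42 ± 0.64 TPM) and *CFB* (4.22 ± 0.68 TPM, SD, n = 3 each), with no overlap between neighbours. In parental cells *C1S*, *C3* and *C1R* overlapped with their neighbours, and *CFB* lay below them.

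The soluble inhibitors in the set were barely detected. *SERPING1* (ENSG00000149131, plus strand of chromosome 11, 57364860 to 57386644) encodes C1 inhibitor, which inactivates C1r and C1s. It had no count in any parental library and 8, 8 and 3 counts in p85β KR-AA replicates 1, 2 and 3. *CFI* (ENSG00000205403, minus strand of chromosome 4, 110652164 to 110723306) encodes factor I, the protease that uses CD46 as a cofactor. It had 3 counts in p85β KR-AA replicate 1 and none in the other 5 libraries. As the 3 counts allowed by a count of 0 stood for 0.185 to 0.218 CPM in parental libraries and 1 p85β KR-AA library or more was at or under that number of counts, no fold is given for either gene. Both failed the filter and were not fitted.

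The fold changes of the members moved with the scaling and with gene length. Scaling by library totals in place of TMM raised the median log2 fold change of all tested genes by 0.92, and those of the 7 fitted members then lay between 1.44 (*CD59*) and 5.99 (*CD55*). Median log2 fold changes of tested genes were -1.12 for the 1593 genes of at most 1000 bases, 0.24 for the 6016 genes between 2000 and 4000 bases and 1.45 for the 3944 genes between 4000 and 8000 bases, the class of *CD59* and *C3*. *CD55*, with 1843 bases, belonged to the class between 1000 and 2000 bases, whose median was -0.70. With a length offset the log2 fold change of *CD55* was 5.34, that of *CFB* 2.68, that of *CD46* 1.94, that of *C1S* 1.60 and that of *C1R* 0.94.

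**Figure D3:**
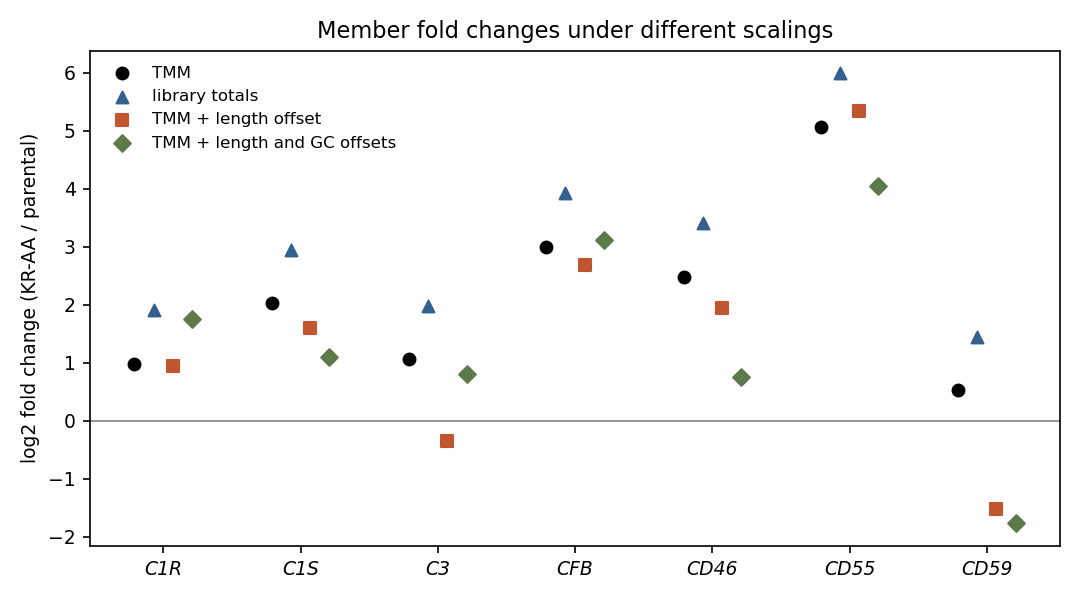
Log2 fold change (p85β KR-AA over parental) of the 7 fitted members under TMM, library totals, TMM with a length offset and TMM with length and GC offsets. *CD55*, *CFB*, *CD46*, *C1S* and *C1R* stay above 0 under these settings, *C3* falls below 0 with the length offset (-0.35), and *CD59* falls below 0 with both offsets (-1.53 and -1.77).

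The rest of the complement system was examined in a list of 53 genes by role, chosen with earlier results known and compared with edgeR's quasi-likelihood test (a gene was called when its fold change reached 3 and its Benjamini-Hochberg p over all genes tested was under 0.01). Of these, 17 passed the filter, 5 were up-regulated, 3 were down-regulated and 9 were not called. The up-regulated share was 29.4% and the down-regulated share 17.6%, against 28.6% and 17.6% of all 16059 tested genes, a split that became 43.9% and 6.06% with library totals. The median log2 fold change of the list was 0.12, against 0.32 over all tested genes. With TMM these shares were near the background. With library totals 5 of the 17 were still called higher, although the share over all tested genes rose to 43.9%, and 1 was called lower. The 36 untested genes included the 3 C1q chains and the 6 lectin pathway recognition molecules, and 12 genes had no count in any library.

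Regulators that act beside the members were among the up-regulated genes. *THBD* encodes thrombomodulin, an endothelial anticoagulant receptor that also supports inactivation of C3b. It had 4, 0 and 0 counts in parental and 17.8, 19.6 and 18.3 CPM in p85β KR-AA libraries, with a log2 fold change of 7.62 (SE 0.47, edgeR adjusted p = 1.58e-08) that rests on these few parental counts. *VTN*, the gene for vitronectin, which binds the terminal complex, rose from 0.238 ± 0.143 to 5.21 ± 0.666 CPM (SD, n = 3 each; log2 fold change 4.39, SE 0.38, edgeR adjusted p = 2.65e-07). For *THBD* and *VTN* every parental library had 5 counts or fewer. Both passed the filter through p85β KR-AA libraries alone, so that their p-values are no separate support for the direction. The 5 endothelial markers in the table, of 6 listed, summed to 1.17 to 3.28 CPM in parental and 1.67 to 2.13 CPM in p85β KR-AA libraries. Single markers went in opposite directions within this sum. *KDR* was higher in every p85β KR-AA library, with 33, 22 and 17 counts against 2, 0 and 0 in parental ones. *VWF* was lower in every one (log2 fold change -1.71), *CLDN5* overlapped, and *CDH5* and *TIE1* had 3 counts or fewer in every library.

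*C5*, the precursor of the membrane attack complex, was up-regulated from 1, 1 and 0 counts to 36, 20 and 19 counts, at least 3.62-fold higher than the limit of 3 counts in the shallowest parental library (edgeR adjusted p = 1.23e-04), and was not called with length and GC offsets. Like *THBD* and *VTN*, *C5* passed the filter through p85β KR-AA libraries alone, and the same limit holds for its p-value. *CR2*, a receptor for C3 fragments in the cluster of *CD55* and *CD46*, rose from 1.66 ± 1.01 to 6.03 ± 0.428 CPM (SD, n = 3 each; log2 fold change 1.83, SE 0.36, edgeR adjusted p = 4.38e-04). It dropped under the fold threshold without parental replicate 2 (1.41) and with a length offset (0.83), and was not called when the fold itself was tested against 3. Parental replicate 2 held 7 counts of *CR2*, so that the gene passed the filter only with the help of the p85β KR-AA libraries. The limit given for the p-value of *C5* holds for that of *CR2* too.

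*CFD*, which encodes factor D, the protease that cuts factor B, was down-regulated. It fell from between 166.4 and 289.8 CPM in parental to between 21.6 and 22.9 CPM in p85β KR-AA cells, with a log2 fold change of -3.29 (SE 0.20, edgeR adjusted p = 1.30e-08). The groups were far apart, and the direction was opposite to that of *CFB*, its substrate. *CFD* is 809 bases long, and its log2 fold change with length and GC offsets was -0.98, which is not called. *C1QBP*, for a mitochondrial protein that can bind C1q, fell by 1.96 on the log2 scale (SE 0.14, edgeR adjusted p = 4.81e-08), and *CALR*, for the chaperone calreticulin, by 1.87 (SE 0.13, edgeR adjusted p = 3.62e-08). Neither passed the fold threshold with library totals (-1.03 and -0.94) or with length and GC offsets (-1.33 and -1.23).

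The remaining substrates and regulators were not called. *C2*, the classical pathway partner of C4, had a log2 fold change of -1.50 (SE 0.40, edgeR adjusted p = 0.0037), with at most 27 counts in a library, and passed the fold threshold with DESeq2 (-1.64), with a length offset (-1.68), without parental replicate 3 (-1.71) and without p85β KR-AA replicate 3 (-1.75). The direction of *C2* is uncertain, because ENSG00000244255 overlaps it on the same strand. That gene took mean counts of 5.41 (parental) and 186.9 (p85β KR-AA), against 20.7 and 15 for *C2*. *C4A* and *C4B* had log2 fold changes of 0.56 and 0.12 (SE 0.41 and 0.32, edgeR adjusted p = 0.22 and 0.74). They are near-identical copies between which the counting could split reads, so that each is uncertain, and both turned negative with a length offset (-0.93 and -1.37). *CLU*, for clusterin, was not called at a fold change of 3, with 577 ± 64.4 and 271 ± 17.3 CPM (SD, n = 3 each). *CFP*, for properdin, had 1 count in each parental library and 8, 3 and 5 in p85β KR-AA libraries and was not tested.

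**Figure D4:**
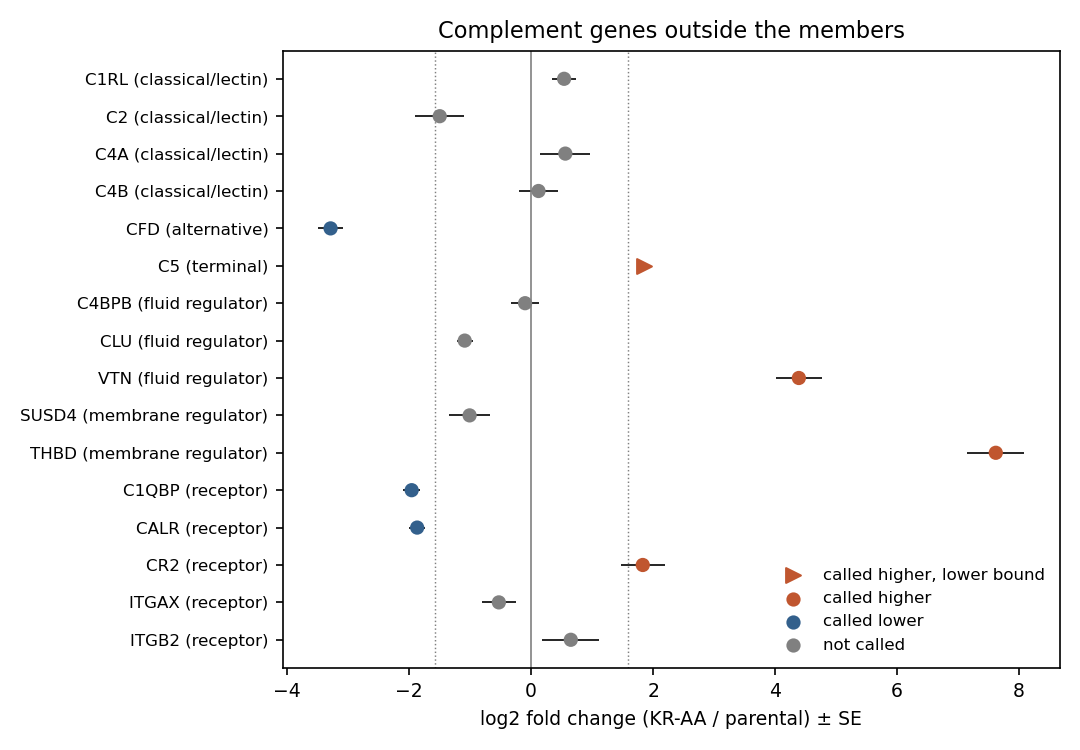
Log2 fold change ± SE (p85β KR-AA over parental, edgeR) of tested complement genes outside the 9 members, by role. Dotted lines mark a fold change of 3, and the triangle marks the lower bound of *C5*. *CFD* lies at -3.29 and *THBD* at 7.62, and 9 genes are not called.

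CD55 and CD59 reach the surface only with a GPI anchor, which is built stepwise in the endoplasmic reticulum and attached by a transamidase. Of 28 genes that make, attach or remodel the anchor, 27 were tested, 5 were up-regulated (18.5%, against 28.6% of all tested genes) and 4 were down-regulated (14.8%, against 17.6%). Their median log2 fold change was 0.06, against 0.32 over all tested genes. *PIGA*, the catalytic subunit of the first step, rose from 0.704 ± 0.279 to 11.2 ± 2.36 CPM (SD, n = 3 each), or by 4.0 on the log2 scale (SE 0.31, edgeR adjusted p = 1.04e-07). *PGAP1*, which remodels the anchor after attachment, rose by 4.80 on the log2 scale (SE 0.31, edgeR adjusted p = 2.21e-08), *PIGN* by 2.74, *PIGM* by 2.12 and *PIGK* by 2.04. *PIGM* and *PIGN* encode enzymes of anchor assembly, and *PIGK* the catalytic subunit of the transamidase. Parental libraries held 9, 14 and 8 counts of *PIGA* and 11, 6 and 6 of *PGAP1*, so that both passed the filter through the p85β KR-AA libraries. *PIGN*, *PIGM* and *PIGK* were not called with a length offset (1.51, 0.21 and 0.84), and *PIGK* and *PIGM* turned to -0.11 and -0.57 with length and GC offsets.

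The down-regulated GPI genes were *DPM3* (log2 fold change -2.94, SE 0.19, edgeR adjusted p = 2.18e-08), *GPAA1* (-1.81), *DPM2* (-1.67) and *PIGQ* (-1.65). *DPM2* and *DPM3* encode subunits of dolichol-phosphate-mannose synthase, and *GPAA1* a transamidase subunit. None of these 4 was called with length and GC offsets, 3 were not called with library totals, and *PIGQ* was not called without p85β KR-AA replicate 2 (-1.54). *DPM2* was not called with a length offset (-0.71). With a minimum of 10 counts in every library neither *DPM2* (-1.48) nor *PIGQ* (-1.45) was called. The other 18 tested genes, *PIGT*, *PIGS* and *PIGC* among them, were not called.

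Complement genes are known to be induced by IL-6 family cytokines, interferon gamma, IL-1 and TNF through STAT, IRF, NF-kB and C/EBP factors. All 16 genes listed for these routes were tested. Of these, 7 were up-regulated (43.8%, against 28.6% of all tested genes) and 1 was down-regulated (6.25%, against 17.6%), with a median log2 fold change of 1.11. *OSMR*, the oncostatin M receptor, had 2.66, 3.13 and 3.15 CPM in parental and 121, 124.5 and 121.5 CPM in p85β KR-AA libraries, a log2 fold change of 5.36 (SE 0.16, edgeR adjusted p = 1.30e-10). *IL6ST*, the shared signal subunit of this receptor family, had 4.25, 3.50 and 2.96 CPM in parental and 57.2, 56.2 and 28.7 CPM in p85β KR-AA libraries (log2 fold change 3.73, SE 0.28, edgeR adjusted p = 8.35e-08). Replicate 3 was the lowest p85β KR-AA library for *IL6ST*, as it was for *CD46*, *CD55*, *PIGA* and *EPCAM*, but not for *CD59* or *CFB*. The low replicate is thus not particular to *CD46* and *IL6ST*.

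The kinase genes *JAK1* and *JAK2* rose by 2.47 and 2.42, *IL1R1* by 2.29 and *IL6R* by 1.81 on the log2 scale (SE 0.18, 0.37, 0.24 and 0.20, edgeR adjusted p = 6.06e-08, 5.48e-05, 1.45e-06 and 2.14e-06). With 7, 12 and 6 counts in parental libraries, *JAK2* passed the filter through the p85β KR-AA libraries. *CEBPB*, which encodes the factor of the acute-phase response C/EBPβ, was down-regulated (log2 fold change -1.72, SE 0.15, edgeR adjusted p = 3.77e-07). *STAT3* and *IRF1* had log2 fold changes of 1.38 and -0.60 and were not called. Several of these genes are long, and with a length offset 3 of the 16 were up-regulated, *OSMR* and *IL6ST* among them, against 17.5% of all tested genes. With length and GC offsets 2 were up-regulated, *OSMR* and *IL6ST*, against 13.1%, and *CEBPB* was not called with either offset or with library totals.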

How the data were processed

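RNA from 3 parental and 3 p85β KR-AA DLD1 libraries (TRIzol, Illumina TruSeq) was sequenced. The study's methods name SeqPrep and Sickle for trimming the paired reads and FPKM for expression. The submitters' processing notes name HISAT2 2.1.0, RSEM 1.3.1, DESeq2 1.24.0 and hg18, without their roles. The deposited values are the authors' estimated counts for each Ensembl gene, without normalization, beside a gene length. Strand use is not given in the sources used here.

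The planned test assumed whole counts, so the estimated counts were rounded. They were filtered (edgeR 4.0.16 in R 4.3.3, filterByExpr, minimum count 10, minimum total 15), TMM-scaled and compared by the quasi-likelihood F test without covariates, with Benjamini-Hochberg adjustment over 16059 genes. The thresholds are those of the study's methods. SE was derived from the log2 fold change and F. Symbols and GRCh37 positions came from GENCODE 44 lifted to that build (56745 of 58884 identifiers), which may not be the build of the counts. Promoters came from RefSeq. TPM was computed from the deposited length. The code was tested on simulated counts.

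The members and lists were chosen with earlier results of these data known. Text names all 9 members and, per list, called genes (at most 20) and a few uncalled genes that place a member. *CLU* and *MIR29B2CHG* and the other overlapping genes were named after their values were seen. Some listed genes, called genes among them, are counted but not reported by name here. Alternatives were DESeq2 1.42.0, library totals, other filters and thresholds, the replicate block, each library left out, and offsets for gene length (spline with 5 degrees of freedom, MASS), the last also with GC content, which was added after the data were seen, as was summing overlapping genes. Each symbol had 1 identifier, so the planned sum over copies gave no other value. Replicate counts differed by 4.08 to 35.8 times sampling noise (chi-square per degree of freedom).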

Additional observations from a re-analysis of the deposited data

How the results depend on the processing

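The cause of the shifts below was not tested, except that a stricter filter tests fewer genes and the test of the fold against 3 asks more. Over all genes, against 4597 called higher and 2825 called lower, library totals gave 7052 and 973, a minimum of 10 counts in every library gave 2898 higher, the length offset 2815 higher, the length and GC offsets 2078 higher, the test of the fold against 3 gave 2974 and 1779, and a fold of 2 at an adjusted p of 0.05 gave 4289 lower. For the other complement genes (5 higher and 3 lower), 0 were called higher with the 10-count minimum, where none of the 5 was tested, 3 were higher and 0 lower with length and GC offsets, 1 was lower with library totals and 6 were lower at a fold of 2. For GPI anchor genes (5 and 4), library totals gave 8 and 1, the 10-count minimum 3 and 2, the length offset 3 higher, the length and GC offsets 2 and 0, and the test of the fold 3 and 1. For cytokine signalling (7 and 1), 3 were higher with the length offset and 2 with length and GC offsets, and 0 were lower under library totals, the 10-count minimum, either offset and the test of the fold. Member log2 fold changes with library totals were 1.90 (*C1R*), 2.95 (*C1S*), 1.98 (*C3*), 3.92 (*CFB*), 3.41 (*CD46*), 5.99 (*CD55*) and 1.44 (*CD59*), and as ratios of TPM means 2.36, 3.40, 2.43, 4.40, 3.87, 6.45 and 1.90 in the same order. With the length offset they were 1.60 (*C1S*), -0.35 (*C3*), 1.94 (*CD46*), 5.34 (*CD55*) and -1.53 (*CD59*), and with length and GC offsets 1.76 (*C1R*), 1.10 (*C1S*), 0.81 (*C3*), 0.75 (*CD46*), 4.05 (*CD55*) and -1.77 (*CD59*). The 10-count minimum gave 2.23 (*C1S*) and 0.71 (*CD59*), DESeq2 1.91 (*C1S*), and the sum with the overlapping gene 3.53 (*CFB*). The other 77 alternative values of the members moved by less than the spread between replicates. Directions also turned for *C4A* (-0.93) and *C4B* (-1.37) with the length offset, *C4B* without parental replicate 2 (-0.12) and without p85β KR-AA replicate 2 (-0.04; -0.12 to 0.26 with any 1 library left out), *PIGK* (-0.11) and *PIGM* (-0.57) with length and GC offsets, and *IRF1* with library totals (0.31). Leaving out 1 library gave 4357 to 4655 higher and 2728 to 2955 lower calls, 4 to 5 and 3 to 4 for the other complement genes, 5 and 3 to 5 for GPI anchor genes, and 7 and 1 for cytokine signalling. Same-numbered libraries deviated from their group means with correlations of -0.204, 0.176 and -0.057, against -0.243 to 0.324 for different numbers. These values show no pairing by number, but 3 libraries per group cannot exclude one, and the labels do not state any. The replicate block gave 4626 and 2827 calls. The block changed no list count, and with it, as without a filter, edgeR's prior degrees of freedom were infinite. Relative to 0.32, the median log2 fold change of all tested genes moved by 0.92 with library totals, -0.11 with DESeq2, 0.49 without a filter, -0.22 with the 10-count minimum, -0.42 with the length offset and -0.46 with length and GC offsets. At 5 CPM in place of 1, 8 of the 12 marker counts moved by more than 1.5 times. *CFI*, *SERPING1* and *CFP* had at most 8 counts in a library and failed the filter on low counts. The part of sequencing depth in these low counts was not tested.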

Other observations

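Protein-coding genes within 500 kb of members were looked at after their values were seen. Around *CFB*, in the major histocompatibility complex region, 55 of 68 such genes were tested by edgeR, of which 5 were called higher and 18 lower in p85β KR-AA cells, with a median log2 fold change of -0.74. The 5 included ENSG00000244255 (log2 fold change 4.07), which shares reads with *CFB* and so is not a separate neighbour. Around *C1S*, 32 of 39 were tested, of which 1 was called higher and 10 lower, with a median of -0.99. Around *CD46*, 2 of 5 were tested, *CR2* and *PLXNA2*, and both were called higher. Over all tested genes 28.6% were called higher and 17.6% lower, and the median was 0.32.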
